A study of Rattus norvegicus with 15 samples.

Results

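A set of 10 genes of the histone acetylation machinery was followed across all 15 RNA-seq libraries of rat dorsal CA1: the deacetylases Hdac1, Hdac2, Hdac3, Hdac4, Hdac5, Hdac9 and Hdac11 and the acetyltransferases Crebbp, Ep300 and Kat2a. They were picked out of the count table by gene symbol and make up 10 of the 22314 genes in the count table. All 10 passed the filter on low counts, as did 14880 genes in all. The libraries came from dorsal CA1, an output field of the hippocampus, of male wild-type Sprague-Dawley rats aged 8 to 9 weeks. Every animal received Accell siRNA, a chemically modified siRNA taken up by cells without a transfection reagent, by stereotaxic injection into dorsal CA1. The first group, labelled Rnf20-siRNA-Trained, received siRNA against Rnf20 and was trained in contextual fear conditioning 5 days later (5 libraries, replicates 4, 8, 14, 18 and 20). The second, Scr-siRNA-Trained, received the control siRNA named Scr and the same training (5 libraries, replicates 5, 6, 10, 15 and 16). The third, Scr-siRNA-Naive, received the Scr siRNA and no training (5 libraries, replicates 1, 2, 9, 11 and 12). No naive group with Rnf20 siRNA was analysed here, the time of dissection after training is not in the labels, and the tissue held all brain cell types.

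Lysine acetylation of histone tails is set by acetyltransferases and removed by deacetylases, and acetylated chromatin is in general more open to transcription. The class I enzymes HDAC1, HDAC2 and HDAC3 are nuclear and work inside corepressor complexes. The class IIa enzymes HDAC4, HDAC5 and HDAC9 have little deacetylase activity of their own, bind MEF2 transcription factors and leave the nucleus when calcium-dependent kinases phosphorylate them. HDAC11 is the only class IV enzyme. CBP (the product of Crebbp) and p300 (Ep300) are close relatives that transcription factors such as CREB recruit, and GCN5 (Kat2a) is the catalytic subunit of the SAGA and ATAC complexes. In rodents, histone acetylation in the hippocampus is among the chromatin changes most studied in memory formation. Rnf20 encodes a ubiquitin ligase for histone H2B.

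Total gene counts ranged from 12537250 to 18458527 in the libraries labelled Rnf20 siRNA, from 15342480 to 20644425 in the Scr trained libraries and from 14249375 to 17046535 in the naive libraries. Levels are given as CPM, counts scaled to a common library size with TMM factors, which is not corrected for gene length, so levels of different genes are not compared, and the values of a group follow the order of its replicate numbers above. Rnf20 itself had 42.0 ± 2.32 CPM in the libraries labelled Rnf20 siRNA, 43.2 ± 5.39 CPM in the Scr trained libraries and 41.8 ± 2.28 CPM in the naive libraries (SD, n = 5 each). Its log2 fold change between the trained groups was -0.04 (SE 0.08, adjusted p = 0.945, edgeR's quasi-likelihood test, 95% interval -0.22 to 0.13), so the counts do not show a lower Rnf20 RNA level under that label, and the group is called Rnf20-labelled from here on. The CA1 marker Wfs1 was present in every library (131.8 to 1019.5 CPM). The mean log2 CPM of 5 CA1 markers was lowest in Scr trained 10, at 5.33, where 8 striatal markers reached 6.16. The 4 libraries that stood far out on the first principal component (35.7% of the variance) were Scr trained 10 and 15 and Rnf20-labelled 14 and 18. Low choroid plexus markers marked 3 others, Scr trained 5 and 16 and Rnf20-labelled 20. The labels do not say that each library came from its own animal, so a p-value here covers no more than the spread from one sample to another, which may be technical. The contrasts share libraries, so the same Scr trained samples stand in both of the first 2 comparisons.

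None of the 10 genes passed edgeR's quasi-likelihood test at adjusted p under 0.05 in any comparison. The differences of smallest p were a higher mean of Hdac1 and a lower mean of Hdac11 in Scr trained than in naive libraries, and a lower mean of Hdac1 and a higher mean of Hdac4 in Rnf20-labelled than in Scr trained libraries, all short of the threshold. That threshold called 0% of all 14880 genes in each of the 3 comparisons and in the F test among the 3 groups. DESeq2 called 58 genes between Scr trained and naive libraries, 1 between Rnf20-labelled and Scr trained libraries and 1 between Rnf20-labelled and naive libraries, and none was among the 10. In Scr trained against naive libraries, Hdac1 and Hdac11 had an unadjusted p under 0.05, against a background of 9.97% of all genes (Hdac1 higher, as for 6.62%, and Hdac11 lower, as for 3.35%). In Rnf20-labelled against Scr trained libraries, Hdac1 and Hdac4 did, against 5.61% of all genes (Hdac4 higher, as for 2.63%, and Hdac1 lower, as for 2.98%). In Rnf20-labelled against naive libraries only Crebbp did, against 2.30% of all genes (1.21% higher and 1.09% lower). In the F test among the 3 groups only Hdac1 did, against 6.44%. The groups overlapped for all 10 genes in all 3 comparisons. Over all genes, groups did not overlap for 1.75% between Scr trained and naive libraries, for 0.659% between Rnf20-labelled and Scr trained libraries and for 0.497% between Rnf20-labelled and naive libraries.

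**Figure D1:**
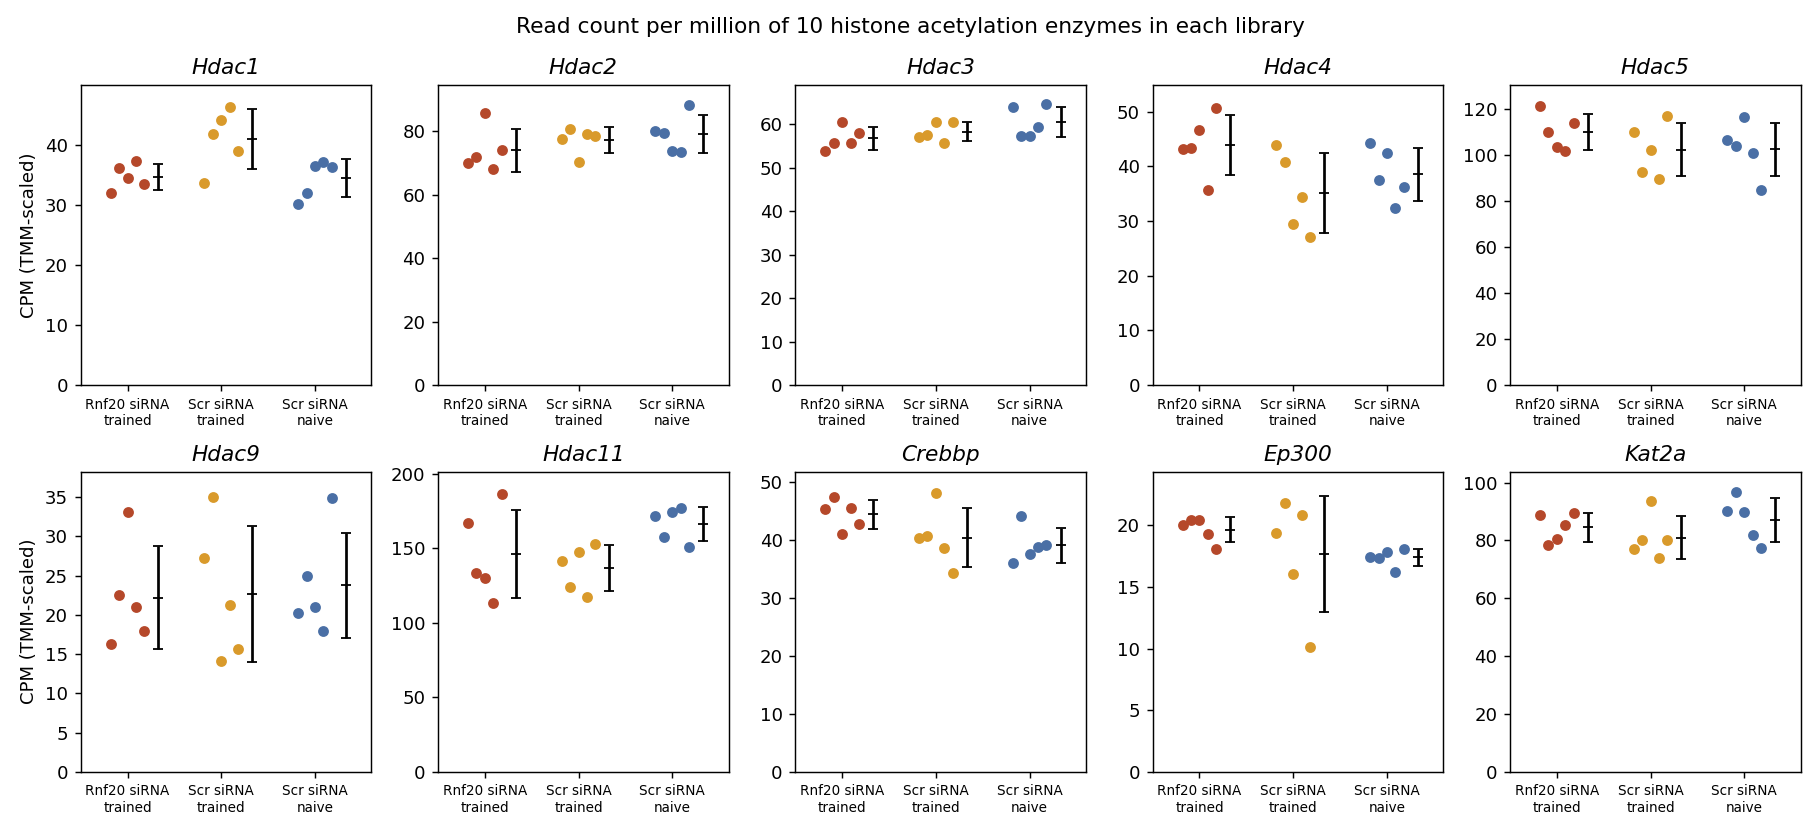
TMM-scaled CPM of each of the 10 genes in every library, with Rnf20 siRNA trained (by label), Scr siRNA trained and Scr siRNA naive libraries from left to right, points in replicate order and black bars for the mean ± SD of 5. Hdac1 runs from 33.5 to 46.3 CPM in the Scr trained libraries against 30.1 to 37.2 CPM in the naive libraries, and the groups overlap in every panel.

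Among the class I enzymes, Hdac1 had the lowest p-values. Hdac1, a catalytic subunit of the NuRD, Sin3 and CoREST complexes, had 31.9, 36.0, 34.4, 37.3 and 33.4 CPM in the Rnf20-labelled libraries, 33.5, 41.8, 44.1, 46.3 and 39.0 CPM in the Scr trained libraries and 30.1, 31.9, 36.4, 37.2 and 36.3 CPM in the naive libraries. Of the 5 Scr trained libraries, 4 lay above every library of both other groups, and the fifth, Scr trained 5, lay inside their ranges. The log2 fold change between Scr trained and naive libraries was 0.25 (SE 0.09, 95% interval 0.06 to 0.44), with an unadjusted p = 0.0131 and adjusted p = 0.408 by edgeR's quasi-likelihood test. Between Rnf20-labelled and Scr trained libraries it was -0.24 (SE 0.09, interval -0.43 to -0.05, unadjusted p = 0.0164, adjusted p = 0.832). Rnf20-labelled and naive libraries differed by 0.01 (interval -0.18 to 0.20).

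Reactive glia, microglia and blood markers had medians on the same side of 0 as Hdac1 in the first 2 comparisons. No marker of these lists passed edgeR's adjusted threshold, and other lists are given beside them. Of 12 neuronal markers, 0 had a log2 fold change above 0 between Scr trained and naive libraries. Between Rnf20-labelled and Scr trained libraries 12 did. In the same order, striatal markers gave 7 and 0 of 8, astrocyte markers 3 and 5 of 8 and oligodendrocyte markers 1 and 10 of 12. Over all genes the shares above 0 were 47.2% and 50.7%. Of the neuronal markers, Eno2 lay near the floor, at 0.23 to 0.86 CPM over all libraries. Of 15 reactive glia markers tested, 15 had a log2 fold change above 0 between Scr trained and naive libraries (median 1.21), and 0 of 15 did between Rnf20-labelled and Scr trained libraries (median -0.60). Of 10 microglia markers, 9 were above 0 in the first of these comparisons (median 0.46) and 1 in the second (median -0.46). The reactive glia score (log2 CPM averaged over the markers) ranged from 3.59 to 6.70 in the Rnf20-labelled libraries, from 4.99 to 7.20 in the Scr trained libraries and from 4.63 to 5.28 in the naive libraries. The microglia score ranged from 5.32 to 6.76 in the Rnf20-labelled, from 5.76 to 6.76 in the Scr trained and from 5.56 to 6.36 in the naive libraries. No marker of either list was at 0 in any library. Of 5 blood markers tested (hemoglobin and other red cell genes), 5 were above 0 between Scr trained and naive libraries (median 2.08) and 0 between Rnf20-labelled and Scr trained libraries (median -1.003). The blood score ranged from 3.33 to 5.25 in the Rnf20-labelled, from 3.55 to 6.69 in the Scr trained and from 3.13 to 3.62 in the naive libraries, and only Slc4a1 was at 0 in any, in 1 naive library. Between Rnf20-labelled and naive libraries, where Hdac1 hardly differed, 5 of 5 blood markers (median 1.09) and 13 of 15 reactive glia markers (median 0.39) were above 0. Of the microglia markers, 4 of 10 were above 0 there (median -0.0015). The part of the microglia and blood lists in the Hdac1 differences was not tested. With the reactive glia score as a covariate, the Hdac1 log2 fold change was 0.15 between Scr trained and naive libraries (unadjusted p = 0.122) and -0.15 between Rnf20-labelled and Scr trained libraries (unadjusted p = 0.107). Without the 4 libraries far out on the first component it was 0.16 (unadjusted p = 0.146) and -0.18 (unadjusted p = 0.136) in these comparisons. Those 4 include Scr trained 10 and 15, the highest Hdac1 libraries of their group (44.1 and 46.3 CPM). Without the 3 libraries of low choroid plexus markers the Hdac1 log2 fold change was larger. It was 0.36 (unadjusted p = 0.0015) between Scr trained and naive libraries and -0.34 (unadjusted p = 0.0034) between Rnf20-labelled and Scr trained libraries. Those 3 include Scr trained 5 and 16, the lowest Hdac1 libraries of their group (33.5 and 39.0 CPM). In bulk tissue, fewer cells of a type and less RNA per cell cannot be told apart.

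Hdac2 and Hdac3 stayed closer together. Hdac2, the partner of Hdac1 in the same complexes and a brake on memory formation in mice, had 69.9, 72.0, 85.6, 68.2 and 74.2 CPM in the Rnf20-labelled libraries, 77.5, 80.7, 70.2, 79.3 and 78.5 CPM in the Scr trained libraries and 80.3, 79.5, 73.8, 73.6 and 88.2 CPM in the naive libraries. The ranges overlapped, although Rnf20-labelled 4, 8 and 18 lay below all 5 naive libraries. Its log2 fold changes were -0.03 (interval -0.19 to 0.12) between Scr trained and naive libraries, -0.06 (interval -0.22 to 0.10) between Rnf20-labelled and Scr trained libraries and -0.10 (interval -0.25 to 0.06) between Rnf20-labelled and naive libraries. Hdac3, the catalytic subunit of the NCoR and SMRT complexes, had 53.8, 55.8, 60.4, 55.6 and 58.1 CPM in the Rnf20-labelled libraries, 56.9, 57.6, 60.6, 55.7 and 60.4 CPM in the Scr trained libraries and 64.0, 57.3, 57.3, 59.4 and 64.6 CPM in the naive libraries. The highest values were both naive, and the other libraries were mixed. Its 3 log2 fold changes were -0.05 between Scr trained and naive libraries (interval -0.18 to 0.07), -0.04 between Rnf20-labelled and Scr trained libraries (interval -0.16 to 0.08) and -0.09 between Rnf20-labelled and naive libraries (interval -0.22 to 0.03).

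Among the class IIa enzymes, Hdac4 had the lowest p-value. Hdac4, a MEF2 corepressor that neuronal activity moves out of the nucleus, had 43.2, 43.3, 46.7, 35.7 and 50.6 CPM in the Rnf20-labelled libraries, 44.0, 40.8, 29.4, 34.4 and 27.0 CPM in the Scr trained libraries and 44.3, 37.5, 42.5, 32.4 and 36.2 CPM in the naive libraries. Scr trained 10, 15 and 16 lay below all 5 Rnf20-labelled ones, while Scr trained 5 lay in the middle of them. Between Rnf20-labelled and Scr trained libraries it differed by a log2 fold change of 0.32 (SE 0.14, interval 0.03 to 0.61), with an unadjusted p = 0.0304 and adjusted p = 0.832 by edgeR's quasi-likelihood test. It was -0.14 between Scr trained and naive libraries (interval -0.42 to 0.15) and 0.19 between Rnf20-labelled and naive libraries (interval -0.10 to 0.47). With the reactive glia score as a covariate the difference between Rnf20-labelled and Scr trained libraries was 0.19 (unadjusted p = 0.149), and with 1 surrogate variable it was 0.20 (unadjusted p = 0.0688). It was 0.29 (unadjusted p = 0.0915) without the 4 libraries far out on the first component and 0.28 (unadjusted p = 0.0665) without the 3 of low choroid plexus markers.

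Hdac5, a class IIa relative of Hdac4 regulated in the same way, had 121.3, 109.9, 103.6, 101.6 and 113.8 CPM in the Rnf20-labelled libraries, 110.2, 92.7, 102.2, 89.7 and 116.8 CPM in the Scr trained libraries and 106.4, 103.9, 116.5, 101.0 and 84.8 CPM in the naive libraries. The lowest Rnf20-labelled value lay above 2 of the Scr trained and 2 of the naive values. The log2 fold change was 0.11 between Rnf20-labelled and Scr trained libraries (interval -0.09 to 0.30) and -0.00 between Scr trained and naive libraries (interval -0.20 to 0.20). Hdac9, a class IIa enzyme also made as a truncated form that lacks the catalytic domain, had 16.3, 22.6, 33.1, 21.0 and 18.0 CPM in the Rnf20-labelled libraries, 27.2, 35.03, 14.1, 21.2 and 15.6 CPM in the Scr trained libraries and 20.2, 24.9, 21.0, 17.9 and 34.8 CPM in the naive libraries. Low and high values occurred in all 3 groups, and the 3 ranges overlapped almost wholly. The means were 22.2 ± 6.56 CPM in the Rnf20-labelled, 22.6 ± 8.64 CPM in the Scr trained and 23.8 ± 6.70 CPM in the naive libraries (SD, n = 5 each). The interval of its log2 fold change was wide in every comparison, for example -0.61 to 0.47 between Scr trained and naive libraries.

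The promoters of Hdac1 and Hdac4, the pair with an unadjusted p under 0.05 between the trained groups, are shown because CBP and p300 reach activity-regulated genes through CREB, which binds the cAMP response element. Each run is the 250 bases before the RefSeq gene start on GRCr8, which is not the assembly of the counts, read on the minus strand of the genome, with the half-site TGACG in capitals.
Hdac1, chr5:147165388-147165637: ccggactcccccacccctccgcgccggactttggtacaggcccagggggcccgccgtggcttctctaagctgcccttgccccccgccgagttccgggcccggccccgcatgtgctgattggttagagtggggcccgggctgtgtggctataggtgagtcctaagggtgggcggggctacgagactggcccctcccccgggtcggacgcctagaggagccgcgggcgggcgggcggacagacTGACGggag
Hdac4, chr9:100197638-100197887: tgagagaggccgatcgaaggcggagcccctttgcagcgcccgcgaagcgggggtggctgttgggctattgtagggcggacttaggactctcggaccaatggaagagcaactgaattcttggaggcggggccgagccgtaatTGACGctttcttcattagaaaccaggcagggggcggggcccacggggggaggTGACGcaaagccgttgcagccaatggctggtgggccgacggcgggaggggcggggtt
The half-site begins 9 bases before the Hdac1 start, and 109 and 57 bases before the Hdac4 start. Promoters were matched for 8 of the 10 genes, not for Hdac11 or Kat2a, and both strands were searched. The half-site was in 3 of the 8 (Hdac1, Hdac4 and Hdac5) and in 18.2% of all 33469 promoters of that length. The full element TGACGTCA, which contains the half-site, was in 0 of the 8 and in 1.59% of all promoters. The AP-1 motif TGANTCA was in 0 of the 8 and in 6.34% of all, and the GC box GGGCGG was in 6 of the 8 and in 30.5% of all. These matches describe letters in a window and were not set against any binding data.

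Hdac11, the class IV enzyme, was lower in the Scr trained libraries than in the naive libraries by size, but not past the adjusted threshold. It had 167.0, 133.6, 130.3, 113.3 and 186.4 CPM in the Rnf20-labelled libraries, 141.4, 124.3, 147.6, 117.4 and 153.0 CPM in the Scr trained libraries and 171.8, 157.7, 174.7, 176.9 and 151.0 CPM in the naive libraries. Of the Scr trained libraries, 4 lay below all 5 naive ones and Scr trained 16 lay just inside their range, while the Rnf20-labelled values spread from the lowest to the highest of the 15. Set against the naive libraries, the Scr trained ones had a log2 fold change of -0.28 (SE 0.12, interval -0.54 to -0.02), with an unadjusted p = 0.0347 and adjusted p = 0.459 by edgeR's quasi-likelihood test. It was 0.10 between Rnf20-labelled and Scr trained libraries (interval -0.16 to 0.36) and -0.19 between Rnf20-labelled and naive libraries (interval -0.45 to 0.07). In the same comparison of Scr trained with naive libraries, 11 of 12 oligodendrocyte markers (median -0.23) and 12 of 12 neuronal markers (median -0.20) had a log2 fold change below 0. The oligodendrocyte score ranged from 8.27 to 8.90 in the Rnf20-labelled, from 8.04 to 9.07 in the Scr trained and from 8.47 to 9.04 in the naive libraries. The neuronal score ranged from 7.62 to 8.41 in the Rnf20-labelled, from 7.57 to 8.14 in the Scr trained and from 8.04 to 8.33 in the naive libraries. Eno2, near the floor, counts in that list and score like the other markers. Also below 0 in that comparison were 7 of 7 CA3, 5 of 5 endothelial and 7 of 7 choroid plexus markers. Over the 15 libraries the Hdac11 level had r = 0.50 with the neuronal score (permutation test, adjusted p = 0.171). With the oligodendrocyte score r was 0.45 (permutation test, adjusted p = 0.241), so neither passed. The part of these lists in the Hdac11 difference was not tested. With the reactive glia score as a covariate the Hdac11 log2 fold change was -0.21 (unadjusted p = 0.142). Without the 3 libraries of low choroid plexus markers it was -0.36 (unadjusted p = 0.0130) between Scr trained and naive libraries and -0.29 (unadjusted p = 0.0243) between Rnf20-labelled and naive libraries. Without the 4 libraries far out on the first component these were -0.24 (unadjusted p = 0.0505) and -0.04 (unadjusted p = 0.758). Those 3 include Scr trained 16, inside the naive range, and Rnf20-labelled 20, the highest of the 15 (186.4 CPM). Those 4 include Rnf20-labelled 14 and 18, the lowest of their group (130.3 and 113.3 CPM). The values therefore depend on which libraries were left out.

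Of the acetyltransferases, Crebbp and Ep300 had slightly higher means in the Rnf20-labelled libraries. Crebbp, which encodes the CREB-binding protein, had 45.3, 47.5, 41.1, 45.6 and 42.7 CPM in the Rnf20-labelled libraries, 40.3, 40.7, 48.2, 38.7 and 34.3 CPM in the Scr trained libraries and 36.1, 44.1, 37.6, 38.8 and 39.1 CPM in the naive libraries. Of the naive libraries, 4 lay below all Rnf20-labelled ones, and naive 2 lay among them, while Scr trained 10 was the highest of the 15. Set against the naive libraries, the Rnf20-labelled ones had a log2 fold change of 0.18 (SE 0.09, interval 0.00 to 0.36), with an unadjusted p = 0.0475 and adjusted p = 1.00 by edgeR's quasi-likelihood test. It was 0.14 between Rnf20-labelled and Scr trained libraries (interval -0.04 to 0.32), or 0.23 (unadjusted p = 0.0313) without the 4 libraries far out on the first component, and 0.05 between Scr trained and naive libraries (interval -0.13 to 0.23). Those 4 include Scr trained 10.

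Ep300, which encodes p300, had 20.0, 20.4, 20.4, 19.3 and 18.1 CPM in the Rnf20-labelled libraries, 19.4, 21.8, 16.1, 20.8 and 10.2 CPM in the Scr trained libraries and 17.4, 17.4, 17.9, 16.3 and 18.1 CPM in the naive libraries. Scr trained 16 was the lowest of the 15 libraries, and the coefficient of variation was 26.7% in the Scr trained libraries, against 5.10% in the Rnf20-labelled and 4.10% in the naive libraries. Counting error alone gives 5.88% in the Rnf20-labelled and 6.06% in the naive libraries, so those smaller values show no spread beyond counting. The log2 fold change was 0.18 between Rnf20-labelled and naive libraries (interval -0.15 to 0.50) and 0.15 between Rnf20-labelled and Scr trained libraries (interval -0.17 to 0.47), but 0.01 between Rnf20-labelled and Scr trained libraries without Scr trained 16. Between Scr trained and naive libraries it was 0.02 (interval -0.30 to 0.34) with Scr trained 16 and 0.17 without it. Kat2a, which encodes GCN5, had 88.8, 78.6, 80.4, 85.5 and 89.4 CPM in the Rnf20-labelled libraries, 76.9, 80.2, 93.7, 74.0 and 80.1 CPM in the Scr trained libraries and 90.1, 96.7, 89.7, 81.9 and 77.5 CPM in the naive libraries. The highest Kat2a value was naive and the lowest Scr trained, with the rest mixed, and the log2 fold change between Scr trained and naive libraries was -0.11 (interval -0.27 to 0.06).

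**Figure D2:**
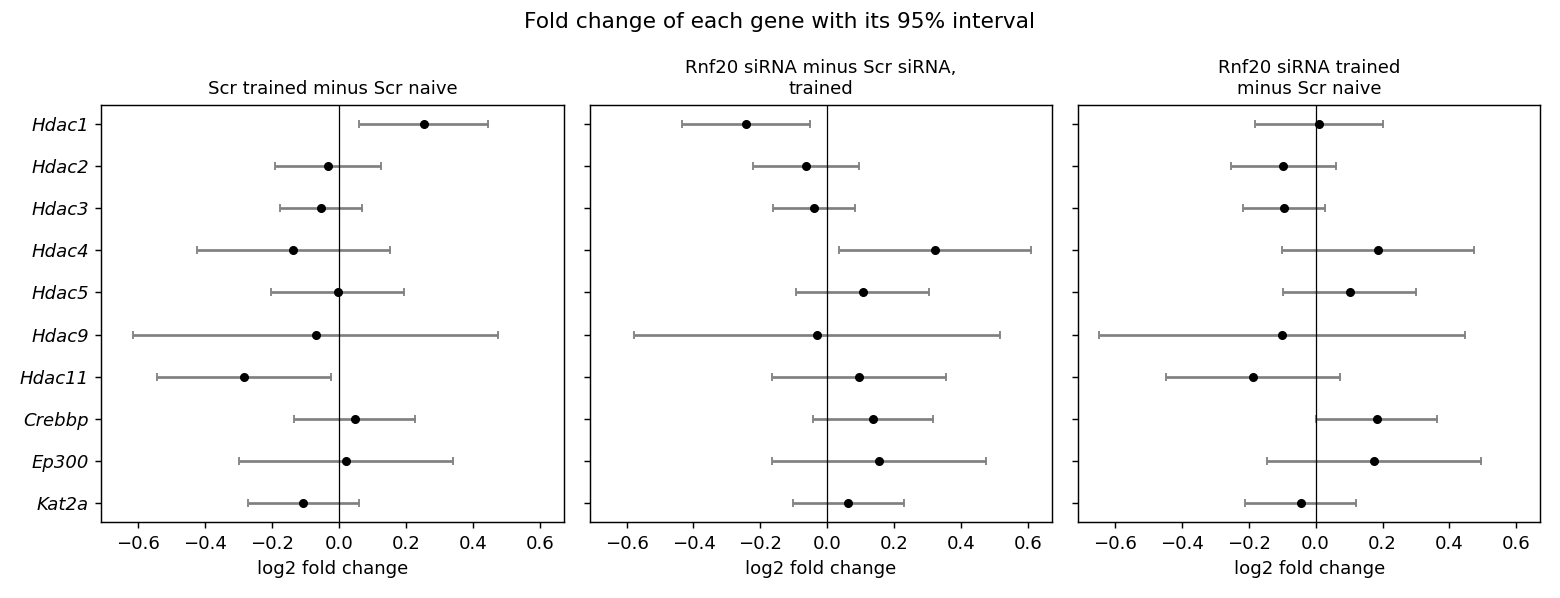
Log2 fold change of each gene (points) with its 95% interval (bars) from edgeR's quasi-likelihood fit to all 15 libraries, in the 3 comparisons, each the first-named group minus the second. The interval leaves out 0 for Hdac1 and Hdac11 on the left, Hdac1 and Hdac4 in the middle and Crebbp on the right, none of which passed after adjustment over 14880 genes.

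Read as a list, the 10 genes did not shift one way. Between Scr trained and naive libraries 3 of the 10 had a log2 fold change above 0 (47.2% of all genes) and their median was -0.04, beside -0.01 over all genes. Between Rnf20-labelled and Scr trained libraries 6 were above 0 (50.7% of all genes), with a median of 0.08 beside 0.00. Between Rnf20-labelled and naive libraries 5 were above 0 (50.6% of all genes), with a median of -0.02 beside 0.00. The bounds of the intervals limit what could have been missed: for Hdac3 the change between Scr trained and naive libraries lay between -11.6% and 4.80%, and for Hdac9 between -34.7% and 39.0%.

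The genes differed in how much they varied between libraries. Over all 15 libraries the coefficient of variation of CPM was 29.9% for Hdac9, 17.0% for Hdac4, 15.4% for Ep300, 15.2% for Hdac11 and 12.5% for Hdac1. It was 10.0% for Crebbp, 9.85% for Hdac5, 8.09% for Kat2a, 7.53% for Hdac2 and 5.24% for Hdac3. Without Scr trained 16, at 10.2 CPM the lowest library for Ep300, the Ep300 value was 9.38%, below those of Crebbp and Hdac5 over all libraries, and for no other gene did leaving out 1 library move it by over 1.5 times. Counts per gene and library ran from 172 to 3015, so counting error alone gives a coefficient of variation of 2.07% for Hdac11 to 5.94% for Ep300. The biological coefficient of variation that edgeR fits within groups, 0.161 for the median gene, was 0.077 for Hdac3, lower than for all but 0.376% of the genes tested. It was 0.283 for Hdac9, above 81.4% of genes. edgeR draws these fitted values toward a trend over all genes, so they are not comparable with the coefficients of variation of CPM above. Hdac9 therefore has the widest intervals and Hdac3 the narrowest.

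Part of this variation ran with cell type markers. The level of each gene was set against the neuronal, oligodendrocyte, microglia and reactive glia scores, 40 relations over the 15 libraries, with two-sided permutation p-values (100000 resamples) adjusted over the 40. Both the level and the score come from the same library and share its depth and scaling. By Pearson's r 4 relations passed, 11 had an unadjusted p under 0.05, and 4 passed by Spearman's rho, with 2 past both. By rho alone, Hdac4 passed with the neuronal score (r = 0.64, rho = 0.72 with adjusted p = 0.0333 by permutation). So did Kat2a with the oligodendrocyte score (r = 0.65, rho = 0.73 with adjusted p = 0.0333 by permutation). Hdac1 fell with the neuronal score, short of the threshold (r = -0.66, permutation p = 0.0077, adjusted p = 0.0577). The Hdac1 level rose with the microglia score (r = 0.74, permutation p = 0.0018, adjusted p = 0.0362; rho = 0.81, permutation p = 0.0005, adjusted p = 0.0200). Without Rnf20-labelled 4 and 14, the libraries farthest from the median score, r was 0.74 (permutation p = 0.0037). Within groups r was 0.82 in the Rnf20-labelled, 0.96 in the Scr trained and 0.34 in the naive libraries. Hdac1 also rose with the reactive glia score (r = 0.71, permutation p = 0.0030, adjusted p = 0.0397; rho = 0.66, permutation p = 0.0097, adjusted p = 0.0650), with r = 0.64 (permutation p = 0.0190) without Rnf20-labelled 14 and Scr trained 15. Within groups that r was 0.78 in the Rnf20-labelled, 0.81 in the Scr trained and 0.04 in the naive libraries.

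**Figure D3:**
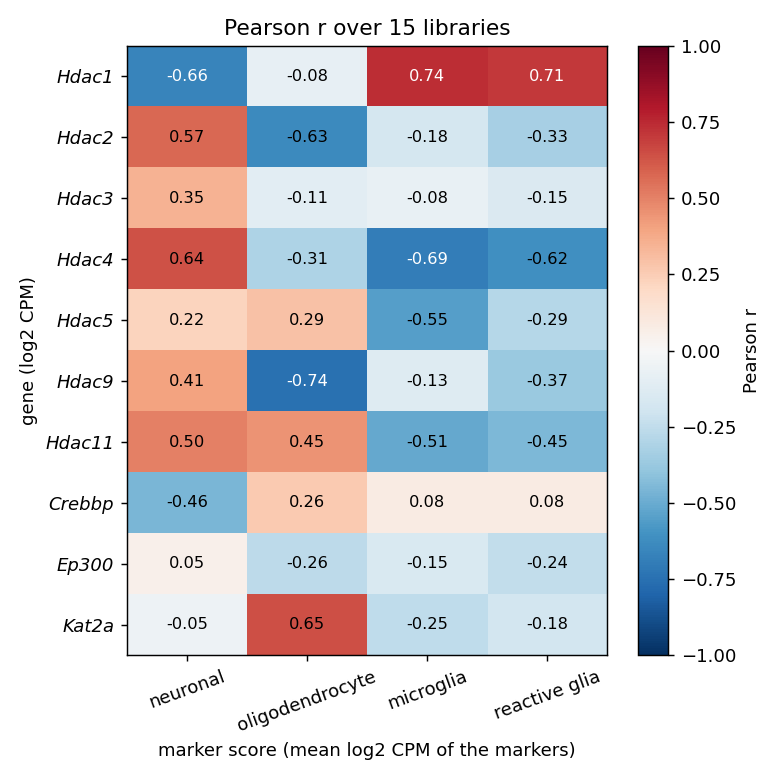
Pearson's r between the log2 CPM of each gene (rows) and each marker score (columns, mean log2 CPM of the markers) over 15 libraries, with blue for negative and red for positive r. Hdac1 has its highest r with the microglia score (0.74) and Hdac9 its lowest with the oligodendrocyte score (-0.74), while Hdac3 stays between -0.15 and 0.35.

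Hdac4 ran the other way from Hdac1, falling with the microglia score (r = -0.69, permutation p = 0.0045, adjusted p = 0.0453; rho = -0.74, permutation p = 0.0022, adjusted p = 0.0333). Without Rnf20-labelled 4 and 14 its r was -0.64 (permutation p = 0.0179), and within groups it was -0.72 in the Rnf20-labelled, -0.47 in the Scr trained and -0.95 in the naive libraries. Hdac9 fell with the oligodendrocyte score (r = -0.74, permutation p = 0.0018, adjusted p = 0.0362; rho = -0.68, permutation p = 0.0068, adjusted p = 0.0544). That r was -0.64 (permutation p = 0.0188) without Scr trained 5 and 6, and within groups it was -0.89 in the Rnf20-labelled, -0.91 in the Scr trained and -0.86 in the naive libraries. Taken as deviations from the group means, which removes the differences between groups, r was 0.66 for Hdac1 with the microglia score (adjusted p = 0.0637 by permutation), 0.57 for Hdac1 with the reactive glia score (adjusted p = 0.102 by permutation) and -0.62 for Hdac4 with the microglia score (adjusted p = 0.0877 by permutation), all short of the threshold. On that scale r was -0.89 for Hdac9 (adjusted p = 0.0016 by permutation) and -0.83 for Hdac2 (adjusted p = 0.0026 by permutation) with the oligodendrocyte score. The permutations of deviations ran over all 15 libraries, not within groups, and ignored the fitted group means, so their p-values may be too small. For Hdac2 the r over all libraries was -0.63 (permutation p = 0.0115, adjusted p = 0.0577; rho = -0.62, permutation p = 0.0152, adjusted p = 0.0821; r = -0.72 without Scr trained 5 and 6). With 2 libraries left out, and so 13 left, no relation passed the adjusted threshold (lowest adjusted p = 0.0863), and 10 had an unadjusted permutation p under 0.05.

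**Figure D4:**
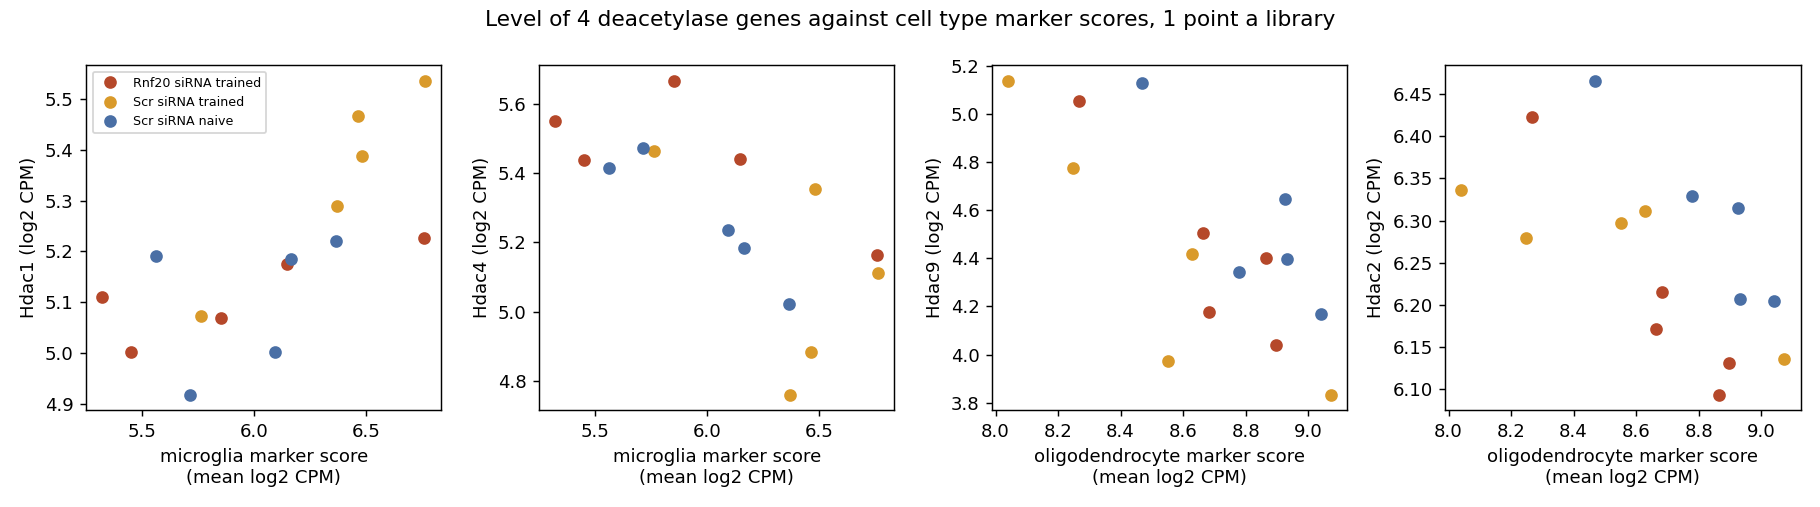
Log2 CPM of Hdac1 and Hdac4 against the microglia score, and of Hdac9 and Hdac2 against the oligodendrocyte score, 1 point a library, coloured by group. Hdac1 climbs and Hdac4 drops as the microglia score goes up, and Hdac9 and Hdac2 drop with the oligodendrocyte score in each of the 3 groups.

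The 10 genes did not vary as 1 block. Of the 45 pairs among them, 21 had r above 0 and 24 below 0 over the 15 libraries. Hdac2 and Hdac9 had the highest value (r = 0.71, permutation p = 0.0029, adjusted p = 0.117 over the 45; rho = 0.64, permutation p = 0.0122, adjusted p = 0.183; r = 0.70 without Rnf20-labelled 18 and naive 12). Hdac1 and Hdac4 had the lowest (r = -0.61, permutation p = 0.0157, adjusted p = 0.184; rho = -0.74, permutation p = 0.0025, adjusted p = 0.112; r = -0.50 without Scr trained 10 and 15). No pair passed after adjustment, and 10 had an unadjusted permutation p under 0.05. Among 9937 genes with a mean of at least 10 CPM, the closest in pattern over the 15 libraries, as a description by Pearson's r, were Fadd (0.91) for Hdac1, Ap1b1 (0.95) for Hdac2, RGD735065 (0.76) for Hdac3, Inpp4a (0.96) for Hdac4 and Bicdl1 (0.92) for Hdac5. They were Stum (0.94) for Hdac9, Bin1 (0.91) for Hdac11, Zfp266 (0.83) for Crebbp, Alg10 (0.95) for Ep300 and Unc5b (0.89) for Kat2a. The second closest to Ep300 was Kat6a (r = 0.94, rho = 0.82), named here because it is another acetyltransferase. Scr trained 16 was the lowest library for Ep300, at 10.2 CPM, and the r values of Ep300 were not recomputed without it.

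The other acetylation genes that were tested gave no call either. Some listed genes were not tested. For example, Sirt1, Kat2b, Brd2, Rcor2 and Brms1 had no entry under these symbols among the counted genes. Dr1 and Kansl2 had a total count of 1 each. Of 10 other deacetylases, 13 other acetyltransferases, 40 subunits of class I corepressor complexes, 23 partners of class IIa enzymes, 15 partners of CBP and p300, 48 subunits of acetyltransferase complexes, 17 acetyl-lysine readers and 10 genes of acetyl-CoA supply that were tested, 0 passed in any comparison. The genes of smallest unadjusted p in each list are given as values.

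Between Scr trained and naive libraries these included Hat1, which acetylates newly made histone H4, with 22.6 ± 2.64 CPM in Scr trained libraries against 18.5 ± 1.41 CPM in naive libraries (log2 fold change 0.29, unadjusted p = 0.0131, adjusted p = 0.408, edgeR). Sin3b, a scaffold of the Sin3 corepressor, had 56.3 ± 5.37 against 47.9 ± 3.24 CPM (0.23, unadjusted p = 0.0149), and Taf12, a subunit shared by TFIID and SAGA, 23.1 ± 1.71 against 19.5 ± 1.47 CPM (0.24, unadjusted p = 0.0097). Camk1g, a calmodulin-dependent kinase gene, had 12.97 ± 1.82 CPM in Scr trained libraries against 18.3 ± 2.90 CPM in naive libraries (-0.50, unadjusted p = 0.0100, adjusted p = 0.394, edgeR). The salt-inducible kinase gene Sik3 had 145.7 ± 11.2 against 167.5 ± 6.90 CPM (-0.20, unadjusted p = 0.0144, edgeR). Its groups did not overlap, which held for 1 of 23 class IIa partners, beside 1.75% of all genes. The log2 fold changes of the others were 0.37 for Sap30, a Sin3 subunit, 0.45 for the bromodomain protein Atad2, -0.14 for Kat5, -0.20 for Trim33, 0.17 for Hif1a, 0.21 for Crem, 0.12 for Mcrs1, -0.11 for Sirt3, -0.18 for Hdac7, -0.15 for Pdha1 and 0.23 for Slc16a1.

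Between Rnf20-labelled and Scr trained libraries Hat1 had the smallest unadjusted p of these lists, with 17.8 ± 2.34 CPM in Rnf20-labelled libraries against 22.6 ± 2.64 CPM in Scr trained libraries (log2 fold change -0.35, unadjusted p = 0.0044, adjusted p = 0.832, edgeR). Rbbp4, the histone-binding subunit of the Hdac1 and Hdac2 complexes, had 60.5 ± 4.50 CPM in Rnf20-labelled libraries against 69.7 ± 8.12 CPM in Scr trained libraries (-0.20, unadjusted p = 0.0394). Kansl3, a subunit of the Kat8-containing NSL complex (0.18, unadjusted p = 0.0197), and the bromodomain gene Brwd1 (0.23, unadjusted p = 0.0214) had groups that did not overlap. Non-overlap held for 1 of 48 subunits of acetyltransferase complexes and 2 of 17 acetyl-lysine readers, beside 0.659% of all genes. Baz2a, another bromodomain gene, had a log2 fold change of 0.22 and Camk1g of 0.38. Of the 17 acetyl-lysine readers, 13 were above 0 (50.7% of all genes), with a median of 0.11 beside 0.00 over all genes. The log2 fold changes of the others were 0.16 for Kat6b, 0.13 for Phf21a, 0.14 for Sik3, 0.17 for Elk1, 0.29 for Crtc3, 0.22 for Atxn7l3, -0.15 for Sirt7, -0.10 for Sirt6, -0.15 for Slc25a1 and -0.23 for Slc16a1.

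Between Rnf20-labelled and naive libraries the CREB coactivator gene Crtc3 had 7.17 ± 0.97 CPM in Rnf20-labelled libraries against 5.67 ± 0.62 CPM in naive libraries (log2 fold change 0.34, unadjusted p = 0.0342, adjusted p = 1.00, edgeR). Of the 10 genes of acetyl-CoA supply, 1 was above 0 (50.6% of all genes) and 9 were below 0. Their median was -0.04 beside 0.00 over all genes, with values from -0.12 to 0.01. Of the 17 acetyl-lysine readers, 13 were above 0 in this comparison too, which shares its Rnf20-labelled libraries with the one before. Between Scr trained and naive libraries 6 of the 17 were above 0 (47.2% of all genes). The 2 genes of smallest p in each other list had log2 fold changes from -0.20 (Epc2) to 0.28 (Sik1). Groups did not overlap for 1 of 48 subunits of acetyltransferase complexes, beside 0.497% of all genes.

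**Figure D5:**
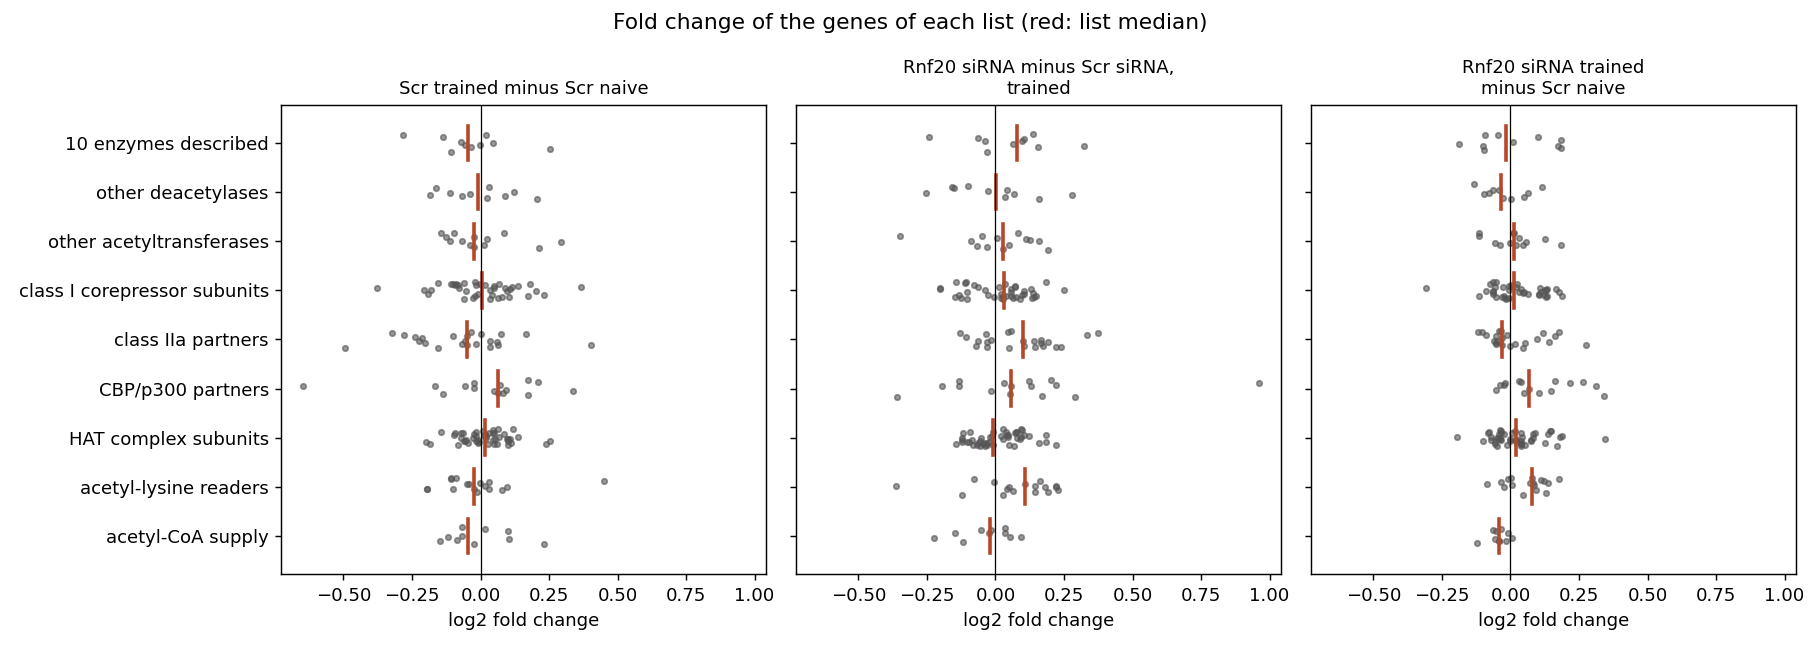
Log2 fold change of every tested gene (grey points) of the 10 enzymes and of 8 other acetylation lists in the 3 comparisons, each the first-named group minus the second, with the list median as a red line. The medians lie near 0 in all lists, for example -0.04, 0.08 and -0.02 for the 10 enzymes from left to right.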

How the data were processed

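RNA-seq read counts per gene were used for 15 rat dorsal CA1 libraries in 3 groups of 5. Per the submitters' processing notes, reads were trimmed with Trim Galore, checked with FastQC and counted with featureCounts 2.0.1 on Rnor_6.0, and the deposited counts were not normalised. What aligner, annotation release and strand setting were used is not given in the sources used here, so counts of overlapping genes (a partner each for Hdac4, Hdac9 and Hdac11, and 2 for Ep300, in GRCr8) are uncertain. The deposited normalised signal equals those counts divided by a DESeq2 size factor per library (0 genes differed, relative tolerance 1e-06), and was used for that check alone. The near-identical Hdac1l had 0 to 5 counts per library.

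The quasi-likelihood test of edgeR 4.0.16 (R 4.3.3) was fitted to all 15 libraries, with TMM scaling and the default low-count filter, which kept 14880 of 22314 genes. P-values were adjusted by Benjamini-Hochberg over all genes tested. DESeq2 1.42.0 (a likelihood ratio test among the 3 groups), limma 3.58.1, sva 3.50.0, other scalings, filters and left-out libraries were alternatives. Marker scores average log2 CPM (prior count 2). In the other lists the 2 genes of smallest p per comparison were named. Leaving out each library for the coefficients of variation was added after seeing the data. The fit was tested on simulated counts. Members, lists and alternatives were chosen with earlier results of these data known.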

Additional observations from a re-analysis of the deposited data

How the results depend on the processing

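None of the 10 genes was called by any alternative (lowest adjusted p over all fits 0.154). Of 360 log2 fold changes under alternatives other than leaving out 1 library, 340 kept their sign, and of 450 with 1 library left out, 421 did. Where the sign turned, the value under the main settings was at most 0.136 in size, and the cause was not tested. Between Scr trained and naive libraries Hdac5 became 8e-04 with limma-voom, 0.0098 with upper-quartile scaling, 0.0181 with 1 surrogate variable, 0.0458 with the reactive glia score as covariate, 0.002 with only those groups fitted and 0.0654 without the 4 libraries far out on component 1. Ep300 became -0.0246 with limma-voom, -0.0212 with quality weights and -0.0219 without the 4 libraries. With 1 surrogate variable, the glia covariate and without the 4 libraries, in that order, Hdac2 became 0.029, 0.0263 and 0.0063, and Hdac9 0.1238, 0.1392 and 0.1314. Hdac4 became 0.0139 with the glia covariate and Crebbp -0.0197 without the 4 libraries. Between Rnf20-labelled and naive libraries Hdac1 became -0.0015, -0.0036 and -0.0243 in the same order. With each library left out in turn, ranges across 0 between Scr trained and naive libraries were -0.0587 to 0.0165 for Hdac2, -0.0558 to 0.0495 for Hdac5, -0.2701 to 0.1108 for Hdac9, -0.0199 to 0.1017 for Crebbp and -0.0545 to 0.1659 for Ep300. Between Rnf20-labelled and Scr trained libraries they were -0.2161 to 0.1831 for Hdac9 and -0.0035 to 0.1674 for Hdac11, and between Rnf20-labelled and naive libraries -0.0341 to 0.0393 for Hdac1, -0.2863 to 0.0882 for Hdac9 and -0.0742 to 0.0058 for Kat2a.

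The number of genes called, 0 by edgeR, was 58 by DESeq2 between Scr trained and naive libraries, 1 between Rnf20-labelled and Scr trained libraries, 1 between Rnf20-labelled and naive libraries and 16 among the 3 groups. With 1 library left out it was 0 to 1 between Rnf20-labelled and naive libraries and among the 3 groups, the 1 arising without naive 9. The number of marker relations past the adjusted threshold, 4 with all libraries, was 2 with deviations from group means, 0 without the 2 libraries farthest from the median score and 0 to 6 with 1 library left out. It was 0 without Rnf20-labelled 4, 8 or 20, Scr trained 5, 10 or 15, or naive 12. No paired analysis was possible because the groups share no replicate numbers.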
